A study of Mus musculus with 6 samples.

Results

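The circadian clock genes of the choroid plexus (ChP) were examined as the rows of the expression table whose symbol was Clock, Arntl, Per1, Per2, Per3, Cry1, Cry2, Nr1d1, Nr1d2 or Dbp. These were 10 of the 24354 gene rows. All 10 had a mean above 1 FPKM (fragments per kilobase of transcript, relative to the reads mapped in the library) over the 6 samples and so were among the 11601 genes tested. The study asked which transcripts ChP epithelial cells translate before birth and in the adult. It purified ribosome-bound mRNA by TRAP (translating ribosome affinity purification), in which a tagged ribosomal protein is pulled down with the mRNA it carries. Samples were 3 of lateral ventricle ChP at E16.5 and 3 from adults of 60 days, and samples of both ages had the genotype FoxJ1:cre x bacTRAP (EGFP:L10a). Foxj1 is a gene of multiciliated and ChP epithelial cells, so Cre under its control directed the EGFP-tagged ribosomal protein to cells that had used that promoter. The study's methods describe each sample as a pool of several adults or litters, while the series' design gives 3 mice per age, so p-values measure the spread between these samples only. All tissue was collected at 9 in the morning. With 1 hour sampled, a difference in the mean level of a gene cannot be told apart from a difference in the phase or amplitude of its rhythm. Nor can fewer cells with an mRNA be told apart from less mRNA per cell in such bulk samples.

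The clock is a feedback loop of transcription. CLOCK and its partner BMAL1, the product of Arntl, bind E-boxes and turn on the Per, Cry, Nr1d and Dbp genes. The PER and CRY proteins then inhibit CLOCK and BMAL1. The nuclear receptors REV-ERBα and REV-ERBβ, from Nr1d1 and Nr1d2, repress Arntl through ROR elements, and DBP activates genes that carry D-boxes. In rhythmic peripheral tissues Arntl therefore peaks at about the opposite time of day to Nr1d1, Dbp and the Per genes, whereas Clock mRNA usually varies little. The ChP of adult mice is known as a tissue with a strong clock of its own.

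The promoters of these genes were searched for the elements named above, and 5 are printed from the RefSeq table for GRCm38.p6, from 250 bases before to 50 bases after the start site and on the strand of the gene. The table matched 9 of the 10 genes with 13 promoters. Capitals mark an E-box (CACGTG), an E-box variant (CACGTT), a D-box (TTANGTAA) or a ROR element (TAGGTCA or TGGGTCA), searched on both strands. Clock (chr5:76304743-76305042, minus strand) is shown because it was the gene that passed the test, Arntl (chr7:113207261-113207560, plus strand) for its ROR element, Per3 (chr4:151044616-151044915, minus strand) for its D-boxes, and Per1 (chr11:69098699-69098998, plus strand) and Cry1 (chr10:85185005-85185304, minus strand) for their E-boxes.
Clock: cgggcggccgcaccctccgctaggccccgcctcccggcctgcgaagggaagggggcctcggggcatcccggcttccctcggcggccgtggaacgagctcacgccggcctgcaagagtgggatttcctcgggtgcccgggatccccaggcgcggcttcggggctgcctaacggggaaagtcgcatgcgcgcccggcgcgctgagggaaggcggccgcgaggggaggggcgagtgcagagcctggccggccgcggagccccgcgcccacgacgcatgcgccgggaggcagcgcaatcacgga
Arntl: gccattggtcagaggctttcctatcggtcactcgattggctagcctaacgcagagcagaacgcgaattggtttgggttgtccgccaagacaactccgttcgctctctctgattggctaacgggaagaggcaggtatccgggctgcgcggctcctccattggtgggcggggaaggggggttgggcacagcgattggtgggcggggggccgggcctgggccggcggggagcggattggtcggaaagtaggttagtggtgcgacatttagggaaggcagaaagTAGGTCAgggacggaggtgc
Per3: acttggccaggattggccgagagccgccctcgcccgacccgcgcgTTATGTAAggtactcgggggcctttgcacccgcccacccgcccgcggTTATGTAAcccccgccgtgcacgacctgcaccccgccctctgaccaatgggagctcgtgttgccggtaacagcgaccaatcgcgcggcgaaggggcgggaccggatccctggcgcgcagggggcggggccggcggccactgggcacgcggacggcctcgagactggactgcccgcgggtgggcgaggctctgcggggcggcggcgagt
Per1: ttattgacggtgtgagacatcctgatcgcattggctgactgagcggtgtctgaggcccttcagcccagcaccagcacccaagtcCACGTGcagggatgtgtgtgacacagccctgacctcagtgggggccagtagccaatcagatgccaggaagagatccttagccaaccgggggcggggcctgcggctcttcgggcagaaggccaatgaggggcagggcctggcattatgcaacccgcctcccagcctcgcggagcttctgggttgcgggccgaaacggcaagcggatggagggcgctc
Cry1: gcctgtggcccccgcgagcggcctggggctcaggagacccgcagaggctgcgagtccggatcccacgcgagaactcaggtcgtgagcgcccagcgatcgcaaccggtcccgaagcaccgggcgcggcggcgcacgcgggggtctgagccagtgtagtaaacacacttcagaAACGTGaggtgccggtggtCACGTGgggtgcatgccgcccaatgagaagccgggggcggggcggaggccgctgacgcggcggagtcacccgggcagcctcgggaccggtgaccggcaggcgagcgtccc
The E-box was in 7.15% of the 32851 promoters in the table and, among the clock genes, in 1 promoter each of Per1, 166 bases before the start, and Cry1, 60 bases before it. The E-box variant was in 4.68% of promoters and in those of Cry1, Cry2 and Nr1d1. The D-box was in 2.32% of promoters and was in that of Per3 at 205 and at 158 bases before the start. The ROR element was in 6.45% of promoters and lay 30 bases after 1 of the Arntl start sites. None of these letters was found in the windows of Clock, Nr1d2 and Dbp. A match describes letters and was not tested as a binding site.

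The libraries differed in depth and in content by age. Read depth was not given with the FPKM values, so it was estimated from the smallest steps between low values. By this estimate, adult 3 was the shallowest library, which adults 1 and 2 exceeded 1.26-fold and 2.86-fold, and embryonic libraries 4.03-fold to 5.09-fold. Adults 1, 2 and 3 had a value of 0 for 22.0%, 10.3% and 36.4% of the tested genes, and the E16.5 samples for 3.68% to 4.02%. Of 14 reference genes that most cells use, 5 were at 0 in adult 3, 2 in adult 1 and 1 in E16.5 sample 1, so a listed 0 is not evidence that a gene was silent. A single annotated RNA, Mir6236, took 32.7% to 51.7% of the summed FPKM of adult samples and 13.3% to 15% of E16.5 samples. The median log2 change of all genes tested, adult minus E16.5 on log2(FPKM + 1), was -0.86, with quartiles of -1.79 and 0.10. Of the changes, 72.8% were negative. The part of Mir6236 and of the listed zeros in this median was not tested. Every change below is on that scale and is read beside this median.

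At the level of the whole loop, Clock was the 1 gene of the 10 that passed the test, and it was higher in adults. By limma with Benjamini-Hochberg adjustment at 0.05, 2.12% of all genes tested were called higher in adults and 8.83% higher at E16.5. Clock genes called were 1 and 0, respectively, and Clock was also the 1 that reached an unadjusted p under 0.05, as did 3626 of all genes. Clock was also the 1 gene whose adult samples all lay above the E16.5 samples, which held for 7.39% of all genes. No clock gene had all of its adult samples below, which held for 31.0% of all genes. The changes of the 10 had a median of -0.79, 8 were negative, and 6 lay above the median of all genes.

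Clock encodes the DNA-binding activator that pairs with BMAL1 (mm10, GENCODE M21, chromosome 5, 76209868 to 76304792, minus strand). It stood at 46.5, 49.9 and 44.8 FPKM in adults 1, 2 and 3, and at 18.1, 20.5 and 17.2 FPKM in the E16.5 samples. The adult values lay within 1.11-fold of each other and the E16.5 values within 1.19-fold, and no sample of either age came near the other age. The means were 47.0 ± 2.59 and 18.6 ± 1.71 FPKM (SD, n = 3 each), a ratio of 2.53. The log2 change was 1.30 (SE 0.33, 95% interval 0.53 to 2.06, limma adjusted p = 0.0466), which was 2.15 above the median of all genes. Among the genes tested, Clock ranked at the 87.4 to 90.3 percentile of level in the adult samples and at the 62.0 to 65.3 percentile at E16.5. The adjusted p was close to its threshold, and the call was lost in 10 of 18 alternatives. These were scaling to the same sum of FPKM (0.50, adjusted p = 0.359), the same without Mir6236 (1.16, adjusted p = 0.0836), limma without a trend (adjusted p = 0.0882), the replicate block (adjusted p = 0.113), a threshold of 0.01, and leaving out any 1 of the other libraries than adult 3 (adjusted p = 0.0626 to 0.129). The change was positive in all 18. Alternatives to the filter, the trend, the block and the threshold left it at 1.30, so its direction could not turn there. Leaving out an E16.5 sample also brought the calls higher in adults among all genes from 246 to between 27 and 47. The change of Clock stayed 1.92 to 2.30 above the median of all genes under the scalings tried.

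**Figure D1:**
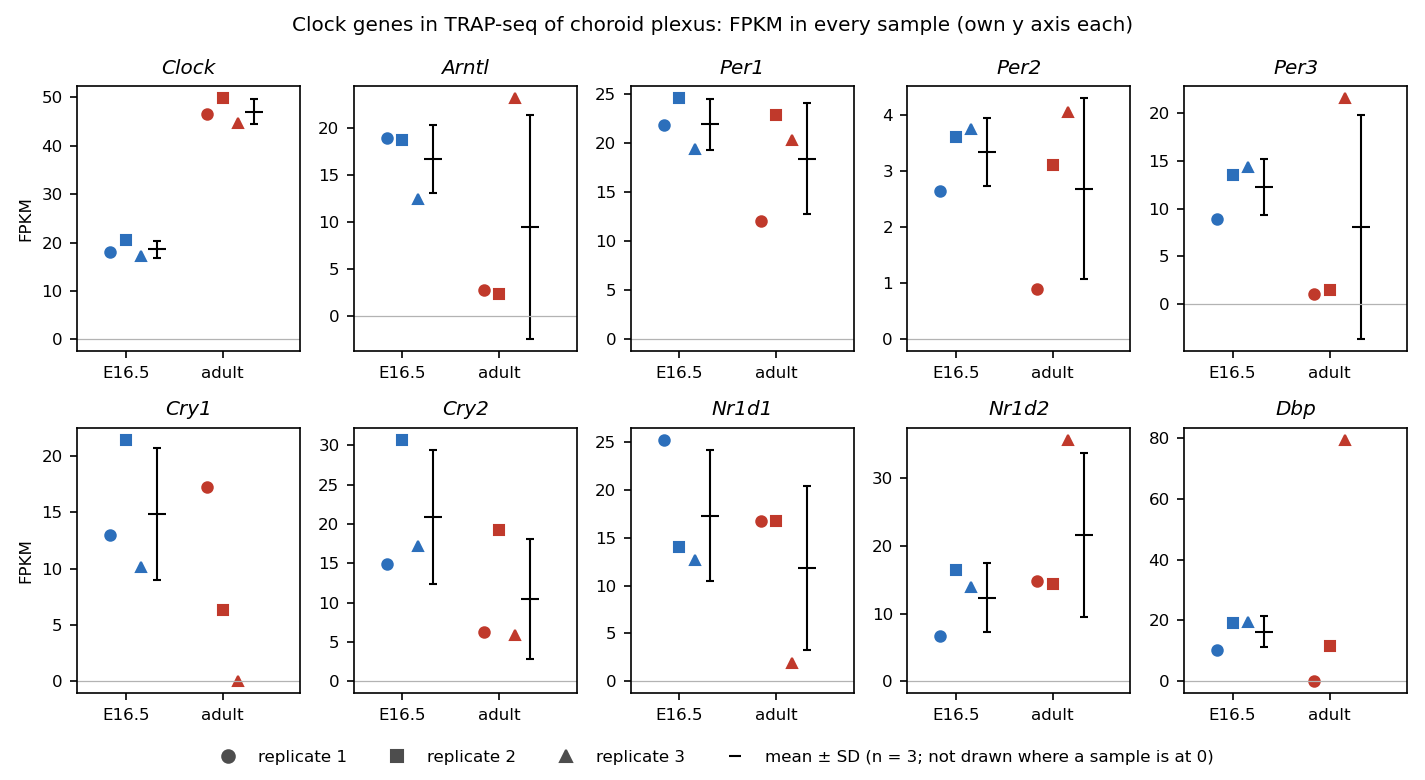
Level in FPKM of each of the 10 clock genes in the E16.5 (blue) and adult (red) samples, with 1 panel and 1 y axis per gene, a symbol per replicate, and the mean ± SD (n = 3) beside them where no sample was at 0. Clock is the panel in which the ages are apart, at 17.2 to 20.5 FPKM and 44.8 to 49.9 FPKM, and adult 3 (triangle) is far from the other adults for Arntl, Per3, Nr1d1, Nr1d2 and Dbp.

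Arntl encodes BMAL1 (chromosome 7, 113207465 to 113314126, plus strand). It stood at 2.75, 2.34 and 23.1 FPKM in adults 1, 2 and 3, and at 18.9, 18.6 and 12.4 FPKM at E16.5. Adults 1 and 2 lay below every E16.5 sample and adult 3 above every one. The means of 9.41 ± 11.9 and 16.7 ± 3.65 FPKM (SD, n = 3 each) gave a log2 change of -1.37 (SE 0.83, 95% interval -3.31 to 0.56, limma adjusted p = 0.291). Without adult 3 the change was -2.30 (SE 0.50, adjusted p = 0.0281), and Arntl was then among 1364 of 11729 genes called higher at E16.5. That omission takes out the 1 adult that lay above E16.5. Without adult 1 or adult 2 the change was -0.95 and -0.87 (limma adjusted p = 0.482 and 0.488). Npas2, which can stand in for CLOCK as the partner of BMAL1, was at 2.37, 4.45 and 11.6 FPKM in adults and 3.67, 1.70 and 0.733 FPKM at E16.5, and the ages overlapped (1.13, limma adjusted p = 0.344). Adult 3 was thus the highest sample for both partner genes whose ages overlapped.

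The 3 Per genes encode the PER proteins, which carry the inhibitory arm with the CRY proteins. Per1 (chromosome 11, 69095217 to 69109960, plus strand) was at 12.1, 22.8 and 20.3 FPKM in adults and at 21.8, 24.6 and 19.4 FPKM at E16.5. Adult 1 was the low sample, and the other adults lay within the E16.5 range. Its log2 change was -0.28 (SE 0.42, 95% interval -1.26 to 0.70, limma adjusted p = 0.673) and turned to 0.05 under median-ratio scaling and to 0.20 under quantile normalization. Per2 (chromosome 1, 91415982 to 91459324, minus strand) was the least abundant clock gene in every E16.5 sample, at 2.66, 3.62 and 3.77 FPKM. In adults it was at 0.906, 3.12 and 4.05 FPKM, again with adult 1 lowest and with adult 3 above every E16.5 sample. The log2 change of Per2 was -0.34 (SE 0.67, 95% interval -1.89 to 1.21, limma adjusted p = 0.750), and it turned to 0.08 without adult 1 and to 0.97 under quantile normalization.

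Per3 (chromosome 4, 151003652 to 151044665, minus strand) was, like Arntl, low in adults 1 and 2 and high in adult 3. It was at 1.10, 1.42 and 21.6 FPKM in adults and at 8.91, 13.5 and 14.4 FPKM at E16.5. Adults 1 and 2 lay below all E16.5 samples and adult 3 above them, while the order of the E16.5 samples was the reverse of that of Arntl. The log2 change was -1.42 (SE 0.97, 95% interval -3.68 to 0.84, limma adjusted p = 0.346). Without adult 3, the 1 adult above E16.5, it was -2.53 (SE 0.56, limma adjusted p = 0.0304). That was a call of higher at E16.5, as for 1364 of 11729 genes in that setting. Without adult 1 or adult 2 the change was -0.82 and -0.92 (limma adjusted p = 0.583 and 0.541).

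The 2 Cry genes encode the cryptochromes, the stronger inhibitors of CLOCK and BMAL1. Cry1 (chromosome 10, 85131700 to 85185064, minus strand) was at 17.2 and 6.37 FPKM in adults 1 and 2, was listed at 0 in adult 3, and was at 13.0, 21.4 and 10.2 FPKM at E16.5. Adult 1 lay within the E16.5 range and the other adults below it. The log2 change of -1.57 (SE 1.05, 95% interval -4.02 to 0.88, limma adjusted p = 0.339) was the lowest of the 10. Cry2 (chromosome 2, 92403646 to 92434043, minus strand) was at 6.25, 19.3 and 5.93 FPKM in adults and at 14.9, 30.7 and 17.2 FPKM at E16.5. Its adults 1 and 3 lay below every E16.5 sample and adult 2 within their range. The log2 change of Cry2 was -1.06 (SE 0.60, 95% interval -2.45 to 0.34, limma adjusted p = 0.261).

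REV-ERBα and REV-ERBβ form the second loop, in which they compete with the activating ROR receptors at the Arntl gene. Nr1d1 (chromosome 11, 98767932 to 98775333, minus strand) was at 16.7, 16.8 and 1.91 FPKM in adults and at 25.2, 14.0 and 12.7 FPKM at E16.5. Adult 3 was the low sample and the other adults lay within the E16.5 range. The log2 change was -0.85 (SE 0.80, 95% interval -2.70 to 1.0, limma adjusted p = 0.481), and it was 0.02 without adult 3 and 0.07 under quantile normalization. Nr1d2 (chromosome 14, 18204054 to 18239127, minus strand) went the other way in adult 3, at 14.8, 14.4 and 35.6 FPKM in adults against 6.66, 16.4 and 13.9 FPKM at E16.5. Its log2 change of 0.72 (SE 0.57, 95% interval -0.60 to 2.04, limma adjusted p = 0.408) was the only positive one beside Clock, and turned to -0.06 after scaling to the same sum of FPKM. Rora, the gene of an activating receptor, was at 20.7, 12.4 and 4.50 FPKM in adults and 26.8, 6.80 and 4.62 FPKM at E16.5, and its ages overlapped (0.13, limma adjusted p = 0.923). Reads of Nr1d1 could not be fully separated from those of Thra, the thyroid hormone receptor gene on the opposite strand, since 263 bases or 8.55% of the Nr1d1 exons overlap it. The use of strand in counting is not given in the sources used here. Thra stood at 50.1, 43.8 and 77.6 FPKM in adults and 63.4 to 98.8 FPKM at E16.5. The part of this overlap in the values of Nr1d1 was not tested.

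Dbp encodes a PAR bZIP activator of D-box genes and is among the most rhythmic transcripts of peripheral tissues (chromosome 7, 45705088 to 45710203, plus strand). It was listed at 0 in adult 1 and was at 11.7 and 79.2 FPKM in adults 2 and 3, whereas the E16.5 samples held 10.4, 19.1 and 19.3 FPKM. The adult values thus ran from the bottom to the top of the clock genes, of which Dbp was the least abundant in adult 1 and the most abundant in adult 3. The SD of its log2 values among adults was 3.18, which lay at the 98.7 percentile of all genes tested. The log2 change of Dbp was -0.73 (SE 1.42, 95% interval -4.02 to 2.56, limma adjusted p = 0.747) and turned to 0.93 without adult 1. On the linear scale the direction was also the other, with means of 30.3 FPKM in adults and 16.3 FPKM at E16.5. Of the Dbp exons, 539 bases or 18.0% overlap Sphk2, a sphingosine kinase gene on the opposite strand, which stood at 14.6, 17.0 and 10.3 FPKM in adults and 4.11 to 11.6 FPKM at E16.5. Of the 50-base stretches in coding transcripts of Dbp, 26.1% were shared with Sphk2 when both strands were searched. The part of this overlap in the values of Dbp was not tested. The related factors Tef and Nfil3, the latter a repressor at D-boxes, did not pass the test. Tef was at 16.4, 22.2 and 36.3 FPKM in adults and 19.5, 20.6 and 26.7 FPKM at E16.5, and Nfil3 at 6.13, 4.10 and 9.67 against 26.2, 38.1 and 8.30 FPKM.

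**Figure D2:**
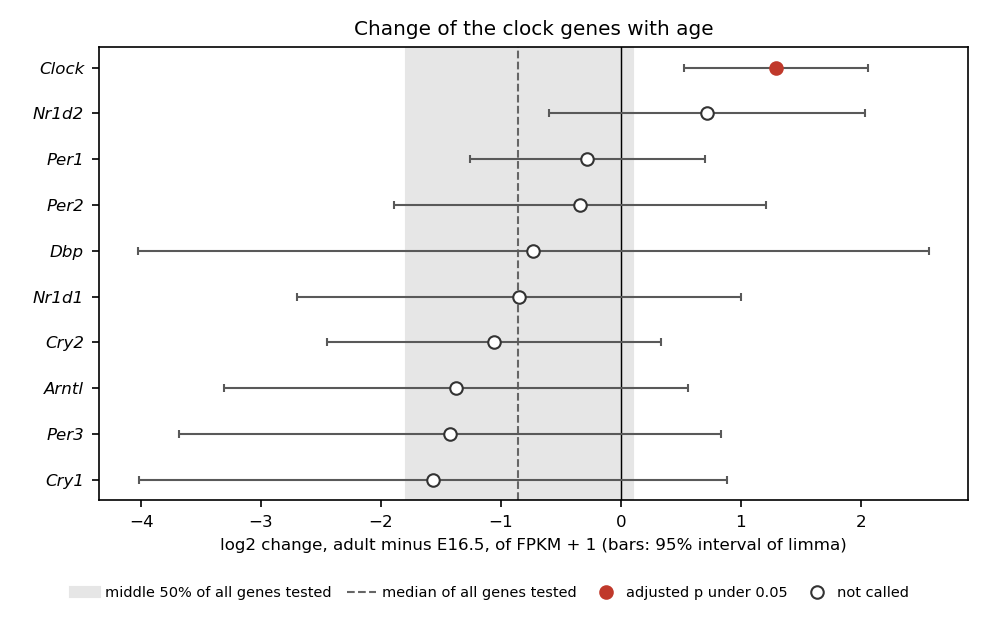
Log2 change of FPKM + 1, adult minus E16.5, of the 10 clock genes (points) with limma's 95% interval (bars), ordered by change, beside the middle 50% of all genes tested (grey, -1.79 to 0.10) and their median (dashed, -0.86). The filled point is Clock at 1.30, and the intervals of the other 9 genes cross 0.

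The clock genes thus differed more among the adult samples than among the E16.5 samples, as genes did in general. The median SD of log2 values was 1.19 in adults and 0.41 at E16.5 for the 10 genes, against 0.98 and 0.45 for all genes tested, and 5 of the 10 lay above the median of all genes at each age. Clock was at the low end, with SDs of 0.08 and 0.12, and Per1 next among adults with 0.46. The larger adult spreads were those of Dbp with 3.18, Cry1 with 2.14, Per3 with 1.92, Arntl with 1.60 and Nr1d1 with 1.51.

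Adult 3 was the highest or the lowest adult for 9 of the 10 genes, beside 81.3% of all genes tested with 3 different adult values. It was the highest adult for Arntl, Per2, Per3, Nr1d2 and Dbp, a share of 5 in 10 beside 31.3% of those genes. It was the lowest for Clock, Cry1, Cry2 and Nr1d1, a share of 4 in 10 beside 50% of them. Adult 1 was the lowest for Per1, Per2, Per3 and Dbp, beside 33.4% of those genes, and the highest for Cry1, beside 28.6%. The 3 adults therefore did not hold the clock genes in 1 common order, nor did they hold genes in general so. This is not read as a result about the clock. Adult 3 was also the shallowest library by the depth estimate. Its summed FPKM of 8 oligodendrocyte and astrocyte markers was 73.0, against 4.59 and 11.8 in the other adults. Of these markers, Mbp stood at 58.7 FPKM, against 1.05 and 6.30 FPKM in adults 1 and 2. Mog, Mag, Olig2 and Gfap were at 0 in adult 3. The part of depth and of these markers in the values of adult 3 was not tested.

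Because a ratio of transcripts within 1 sample does not depend on how samples are scaled, apart from the 1 added to each value, 8 ratios of FPKM + 1 between clock genes were compared. With 3 samples against 3, the smallest p of a two-sided exact permutation test is 0.1. Per1 over Clock gave log2 ratios of -1.86, -1.10 and -1.10 in adults and 0.26, 0.25 and 0.16 at E16.5, so that every adult lay below every E16.5 sample. The difference was -1.58 (exact p = 0.1), the only 1 of the 8 in which the ages did not overlap, but adjusted over the 8 by Benjamini-Hochberg this exact p became 0.8 and the others 1.0. Clock mRNA thus exceeded that of Per1 in each adult sample and was below it in each E16.5 sample, per length.

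The ratios that contrast the opposite arms of the loop varied among adults. Dbp over Arntl was -1.91, 1.93 and 1.73 in adults and -0.81, 0.03 and 0.60 at E16.5, a difference of 0.64 (exact p = 0.6). Nr1d1 over Arntl was 2.24, 2.41 and -3.05 in adults and 0.40, -0.39 and 0.02 at E16.5, a difference of 0.52 (exact p = 1.0). By the second ratio adult 3 stood on the other side of 0 from the other adults, and by the first adult 1 did, whereas E16.5 samples lay between -0.81 and 0.60 by both. Nr1d1 over Nr1d2 was 0.17, 0.21 and -3.65 in adults and 1.77, -0.21 and -0.12 at E16.5 (difference -1.57, exact p = 0.6).

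Other pairs varied less among adults, though Per3 over Arntl did not at E16.5. Per3 over Arntl was -0.84, -0.46 and -0.10 in adults and -1.01, -0.44 and 0.20 at E16.5 (difference -0.05, exact p = 0.9), although Arntl varied 9.90-fold and Per3 19.6-fold among adults. Per1 over Per2 was 2.78, 2.53 and 2.08 in adults and 2.64, 2.47 and 2.10 at E16.5 (difference 0.06, exact p = 0.8). In contrast, Cry2 over Cry1 ran from -1.33 to 2.79 among adults and from 0.19 to 0.70 at E16.5 (exact p = 0.7), and Per2 over Cry1 from -3.26 to 2.34 and from -2.28 to -1.23 (exact p = 0.6). The highest value of both was that of adult 3, in which Cry1 was listed at 0.

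**Figure D3:**
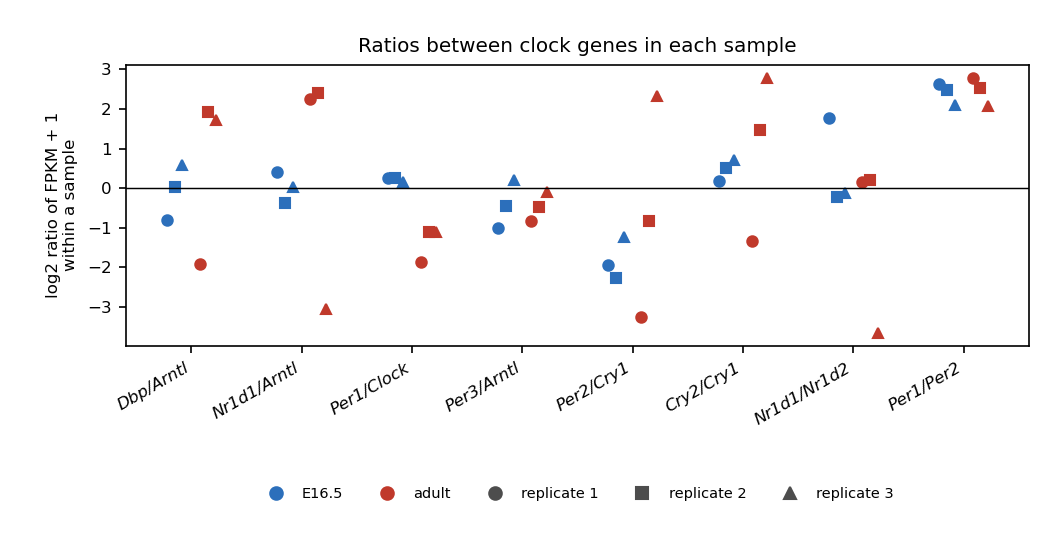
Log2 ratio of FPKM + 1 between 8 pairs of clock genes within each E16.5 (blue) and adult (red) sample, with a symbol per replicate. Per1 over Clock is the pair in which the ages are apart, at 0.16 to 0.26 and -1.86 to -1.10, and adult 3 (triangle) lies at -3.05 for Nr1d1 over Arntl and at -3.65 for Nr1d1 over Nr1d2.

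The genes around the loop were taken from lists by role, of which 47 genes were tested. Of these, 1 was called higher in adults and 3 higher at E16.5, beside 2.12% and 8.83% of all genes. Of the 47 changes 31 were negative, beside 72.8% of all, with a median of -0.49. The PER proteins are marked by kinases for breakdown, and of 11 kinases and phosphatases 2 were called, both higher at E16.5 as were 8.83% of all genes. In 6 of the 11 every adult lay below every E16.5 sample, which held for 31.0% of all genes. Csnk1e, the casein kinase 1 epsilon gene, was at 6.65 and 3.05 FPKM in adults 1 and 2, was listed at 0 in adult 3, and was at 32.3, 34.8 and 39.1 FPKM at E16.5. No adult sample came near the E16.5 range (-3.53, SE 0.79, limma adjusted p = 0.0337). Ppp1ca, a catalytic subunit of protein phosphatase 1, was at 67.3, 64.1 and 30.7 FPKM in adults and 167, 149 and 165 FPKM at E16.5 (-1.63, SE 0.36, limma adjusted p = 0.0326). The median change of the 11 was -0.98, near the -0.86 of all genes. The call of Csnk1e was lost in 10 of 18 alternatives and that of Ppp1ca in 8. Both were lost when any E16.5 sample was left out (limma adjusted p of 0.122 to 0.127 for Csnk1e and 0.103 to 0.112 for Ppp1ca). In those settings the calls higher at E16.5 among all genes fell from 1024 to 25, 16 and 65. Both were also lost under median-ratio scaling (0.0516 and 0.0649), under quantile normalization (0.0524 and 0.109), with the replicate block (0.0530 and 0.0568) and at a threshold of 0.01.

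Ubiquitin ligase genes, which target PER and CRY, gave no call among 7, with a median change of -0.31. The most abundant were Skp1a, at 244, 298 and 251 FPKM in adults and 325, 397 and 250 FPKM at E16.5, and Fbxw11, at 29.8, 30.2 and 27.8 against 36.7, 28.2 and 33.2 FPKM. Of 8 partners of the repressor complexes 1 was called higher at E16.5, beside 8.83% of all genes. This was Ddb1, a part of the CUL4 ligase, at 153, 200 and 192 FPKM in adults and 366, 308 and 504 FPKM at E16.5 (-1.09, SE 0.27, limma adjusted p = 0.0454). The list had a median of -1.16, and the call of Ddb1 was lost in 11 of 18 alternatives. The repressors Bhlhe40 and Bhlhe41 stood at 0 to 11.7 FPKM in adults and 0 to 9.24 FPKM at E16.5 and were not called, and Ciart was listed at 0 in every sample.

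Among 12 genes known as rhythmic outputs of the clock in peripheral tissues, 1 was called higher in adults, as were 2.12% of all genes. Usp2, a deubiquitinating enzyme gene driven by the clock, was at 73.5, 89.8 and 76.9 FPKM in adults and 10.6, 26.4 and 27.2 FPKM at E16.5. Every adult lay above every E16.5 sample, with means of 80.1 ± 8.60 and 21.4 ± 9.35 FPKM (SD, n = 3 each) and a log2 change of 1.96 (SE 0.43, limma adjusted p = 0.0324). Unlike Dbp, Usp2 was held within a narrow range by the 3 adults. Its call was lost in 10 of 18 alternatives, among them the omission of any library but adult 3 (adjusted p up to 0.0858). The median change of the 12 outputs was 0.21, and 4 were negative.

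**Figure D4:**
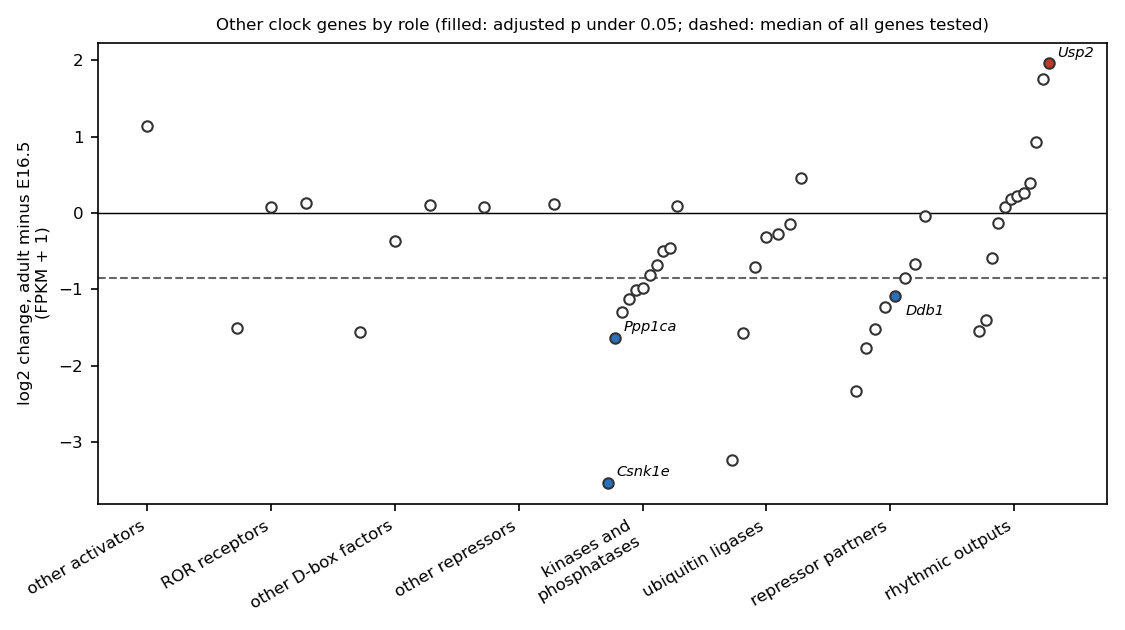
Log2 change of FPKM + 1, adult minus E16.5, of the 47 tested genes around the loop, grouped on the x axis by role, with the median of all genes tested dashed. Filled points passed limma's adjusted threshold, in red for higher in adults (Usp2 at 1.96) and in blue for higher at E16.5 (Csnk1e at -3.53, Ppp1ca at -1.63 and Ddb1 at -1.09).

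Glucocorticoids, the adrenal hormones that peak around waking, act on peripheral clocks, and Per1 is among their targets. The list of 16 genes used for such targets held Per1, already counted among the 10 clock genes, and the receptor genes Nr3c1 and Nr3c2. Of the 16, 1 was called higher in adults and 3 higher at E16.5, beside 2.12% and 8.83% of all genes. The median change of the 16 was -1.20. Klf9, a Krüppel-like factor gene that responds to glucocorticoid and thyroid hormone, was at 49.6, 39.1 and 37.5 FPKM in adults and 4.53, 9.80 and 7.24 FPKM at E16.5 (2.44, SE 0.44, limma adjusted p = 0.0202). The call was lost in 6 of 18 alternatives, of which 4 left out adult 1 or an E16.5 sample. The metallothionein gene Mt2 went the other way, at 2.17, 1.60 and 0 FPKM in adults and 127, 132 and 105 FPKM at E16.5 (limma adjusted p = 0.00272), a call lost in 3 of 18 alternatives (0.0503 to 0.0614). Hif3a was listed at 0 in every adult and was at 40.1, 36.7 and 45.3 FPKM at E16.5 (limma adjusted p = 0.00385), lost in 2 of 18 (0.0503 and 0.0559). Without E16.5 sample 1 or 2 neither Mt2 nor Hif3a was called, and calls higher at E16.5 among all genes then fell to 25 and 16. The third was Fkbp5, a chaperone gene of the receptor, at 2.43, 1.07 and 0 FPKM in adults against 6.82, 19.9 and 21.6 FPKM (limma adjusted p = 0.0477), a call lost in 13 of 18 alternatives. The 4 called targets thus did not move in 1 direction.

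Immediate early genes respond to stimuli and to handling of tissue. Of 14 listed, 8 did not reach the filter on mean FPKM, among them Fos, Fosb, Junb and Egr1, each listed at 0 in every adult. None of the 6 tested was called, and the most abundant were Zfp36, at 27.0, 7.07 and 0 FPKM in adults and 12.6, 6.39 and 9.81 FPKM at E16.5, and Btg2, at 8.24, 9.86 and 0.793 against 6.36, 7.19 and 3.04 FPKM.

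The genes most like Clock across the 6 samples, by the root mean square difference between mean-centred log2(FPKM + 1) profiles, were Drc7 (0.0777), Ahcyl2 (0.0982), Man2a2 (0.115), Atp6v1a (0.121) and Tgfbr3 (0.134). Drc7, which encodes a part of the dynein regulatory complex of motile cilia, stood at 378, 478 and 387 FPKM in adults and 162, 175 and 148 FPKM at E16.5. Atp6v1a, a subunit gene of the vacuolar proton pump, stood at 157, 151 and 177 FPKM against 62.4, 78.8 and 60.5 FPKM. For Cry1, the gene with the lowest change, the nearest were Golph3l (0.159), Scly (0.178), Isoc1 (0.191), Stam (0.217) and Zfyve19 (0.218), and all 5 were, like Cry1, listed at 0 in adult 3.

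Markers of cell types in the libraries also moved with age. The summed FPKM of 15 markers of ChP epithelium was 40763 to 55910 in adults and 4784 to 5358 at E16.5, and Ttr, the defining transcript of this epithelium, had a listed value of 0 in all 3 E16.5 samples. Such a listed 0 is not evidence that Ttr was silent, and its source was not tested. The gap between the sums came from Ttr and Enpp2, since the sum of the other 13 was 4724 to 5876 in adults and 4510 to 5098 at E16.5, which overlapped. The other 13 were not level between the ages, since opposite moves went into their sum. Of all 15, 9 had every adult above every E16.5 sample and 5 had every adult below, beside 7.39% and 31.0% of all genes. Of the 15, 7 were called higher in adults and 3 higher at E16.5, beside 2.12% and 8.83% of all genes. The 7 were Ttr, Kl, Kcnj13, Prlr, Slc4a10, Slc12a2 and Enpp2, and the 3 were Otx2, Foxj1 and Calml4. Kl was at 503 to 628 FPKM in adults and 6.03 to 8.94 FPKM at E16.5, and Prlr at 437 to 527 and 0.541 to 2.38 FPKM. Otx2 was at 150 to 184 FPKM in adults and 340 to 426 FPKM at E16.5, and Aqp1, which was not called, at 68.6 to 168 and 226 to 262 FPKM. The sum of 10 genes of motile cilia was 268 to 412 in adults and 1778 to 2083 at E16.5, that of 8 mesenchymal markers 21.9 to 34.9 and 203 to 262, and that of 8 neuronal markers 2.25 to 8.86 and 19.1 to 120. Red cell genes summed to 0 to 6.49 in adults and 54.1 to 324 at E16.5, progenitor markers to 0.145 to 10.4 and 28.2 to 52.3, and cell cycle genes to 4.07 to 20.5 and 18.2 to 46.1. Endothelial sums were 0.489 to 19.0 and 12.3 to 40.8, and macrophage sums 0.0695 to 6.82 and 0.584 to 8.48. The endothelial, macrophage and cell cycle sums each overlapped between the ages. The defining markers Pecam1 and Cldn5 of endothelium were at 0 in every E16.5 sample, Aif1 of macrophages in every sample, and Rbfox3 and Dcx of neurons in every adult. In E16.5 samples 1, 2 and 3, Rbfox3 was at 2.47, 0 and 0 FPKM and Dcx at 8.32, 0.598 and 0.00772 FPKM. The neuronal sum of 120 was that of E16.5 sample 1, against 20.2 and 19.1 in samples 2 and 3. The part of these cells in the level of Clock, or of any clock gene, was not tested.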

How the data were processed

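TRAP-seq of ChP was available for 3 adult and 3 E16.5 samples, grouped by age from their labels. The authors aligned 50-base single-end reads to mm10 with STAR (version 2.4.0 in the submitters' processing notes) and made the deposited FPKM values with Cuffquant of Cufflinks. The annotation and use of strand at that step are not given in the sources used here. Counts per gene were not used here.

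The deposited FPKM values were not rescaled. The test was limma 3.58.1 (R 4.3.3) on log2(FPKM + 1) of genes whose mean FPKM exceeded 1, with age as the only term and a variance trend over mean level. Adjustment followed Benjamini and Hochberg over all genes tested, and genes under 0.05 were called. On this scale changes of low genes are understated. Tested on simulated data, the fit returned the size of the changes put in but called few except the larger ones, so a gene that was not called is not shown to be equal at both ages. Ratios were compared by two-sided exact permutation tests in scipy 1.17.1. Relative depth was estimated among 2523 genes with 1 transcript model, from only 35 to 63 low values per library. Of these values, 65.1% to 82.1% lay within 0.1 of a whole number of reads. A further 22 to 27 values per library lay below the estimated step. Because the share near whole numbers is partial, no count test was run.

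Gene coordinates are from GENCODE M21 for mm10, and promoters from RefSeq (GRCm38.p6). The members, the lists of other clock genes and markers, and the tests were chosen with earlier results of these data known, and the 14 reference genes after the values of the clock genes were seen. Named were the 10 clock genes, the called genes of each list or else its 2 most abundant, and the 5 nearest profiles to the genes with the highest and lowest change. Some genes that this rule would name are not reported here. Alternatives were other pseudocounts, filters, scalings, limma settings, a replicate block, a threshold of 0.01, and leaving out each sample.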

Additional observations from a re-analysis of the deposited data

How the results depend on the processing

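The FPKM table gives no depth, so counting error could not be separated from other spread, and 3 samples per age leave the exact tests unable to fall below 0.1. Of the 10 clock genes, 1 was called higher in adults. This was 0 after scaling to the same sum of FPKM with or without Mir6236, without a trend, with the replicate block and at a threshold of 0.01, and 0 to 1 with a sample left out. Clock genes called higher at E16.5 were 0, and 0 to 2 with a sample left out. The 2 were Arntl and Per3 without adult 3, the adult that lay above every E16.5 sample for both. Among all genes tested, 246 were higher in adults and 1024 higher at E16.5. The former were 111 after scaling to the same sum, 466 under quantile normalization, 158 without a trend, 112 with the replicate block, 56 at 0.01 and 27 to 357 with a sample left out. The latter were 1678 with FPKM above 1 in every sample of an age, 658 under median-ratio scaling, 3035 after scaling to the same sum, 449 under quantile normalization, 452 with the replicate block, 132 at 0.01 and 16 to 1704 with a sample left out. Leaving out an E16.5 sample gave 27 to 47 higher in adults and 16 to 65 higher at E16.5. Most calls were thus lost in those settings, and a call lost there is not particular to its gene. The share of calls that were higher in adults was 19.4%, and 34.7%, 3.53%, 12.8% and 50.9% under median-ratio scaling, the same sum, the same sum without Mir6236 and quantile normalization. Directions turned for Per1 (0.045 under median-ratio scaling and 0.20 under quantile normalization), Per2 (0.97 under quantile normalization and -0.62 to 0.080 with a sample left out, above 0 without adult 1), Nr1d1 (0.075 under quantile normalization and -1.29 to 0.018 with a sample left out, above 0 without adult 3), Nr1d2 (-0.057 with the same sum) and Dbp (-2.23 to 0.93 with a sample left out, above 0 without adult 1), none of which was called. Clock, Arntl, Per3, Cry1 and Cry2 kept their direction in all 18 alternatives. Those that altered only the filter, the trend, the block or the threshold could not turn a direction. The cause of the turns was not tested. The deviations of same-numbered adult and E16.5 samples from their age means correlated across genes at 0.00089, 0.0439 and 0.0150. Those of differently numbered samples gave -0.0292 to 0.0135. With 3 samples per age these values cannot decide whether the numbers pair the samples.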
